A study of Mus musculus with 4 samples.

Results

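Genes of glucose metabolism and of the hypoxia response were compared between Ikaros-deleted and control DN4 thymocytes, immature T cells without CD4 or CD8 that have passed the pre-T cell receptor checkpoint. The 33 genes were chosen by function, with earlier results of these data known. They were glucose and lactate transporters, enzymes of glycolysis and the pentose phosphate pathway, regulators of pyruvate entry, and genes of the hypoxia-inducible factor (HIF). Of these, 29 had a probe set annotated to exactly 1 gene symbol, out of 19938 genes named in this way on the array. Gpi1, Eno1 and G6pdx had no such probe set, and Gapdh was matched only by 25 probe sets that carry several symbols, so these 4 genes were not analysed here. A gene with several probe sets (6 of the 29) was read from its probe set of highest mean, and the 8 other probe sets of these genes are described beside it.

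Each of the 4 mice carried loxP-flanked copies of Ikzf1 (Ikf/f), which encodes Ikaros, a zinc-finger transcription factor of lymphocytes. Tamoxifen was given intraperitoneally at 50 mg/kg on each of 4 days, and thymocytes were taken 24 h after the last dose; ages were not used here. Mice 129 and 135 (Cre+) also carried Rosa26-CreERT2, a tamoxifen-activated Cre recombinase expressed from a locus that is active in most cell types and is not limited to T cells. Mice 131 and 137 (Cre-) had the floxed alleles and tamoxifen without Cre, per their titles and the design text, although the treatment field names the Cre+ genotype for all 4. No group had Cre without floxed alleles, so Cre activity and Ikaros loss cannot be told apart. Loss of the Ikaros protein in sorted Cre+ cells was shown by western blot, per the design text. Each mouse gave 1 array of log2 expression values made by the authors with RMA, and values are given below in the order 129 and 135, then 131 and 137.

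Glycolysis converts glucose taken up by transporters such as GLUT1 and GLUT3 into pyruvate, which is reduced to lactate or passed to the mitochondria. The pentose phosphate pathway branches from it and supplies ribose and NADPH. Thymocytes that pass the pre-T cell receptor checkpoint divide rapidly, and their use of glucose is known to increase at that step. HIF-1 is a transcription factor whose alpha subunit is destroyed in the presence of oxygen after hydroxylation by EGLN enzymes, and many glycolytic genes are among its known targets.

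The 4 arrays were alike, with array medians between 6.85 and 6.88 and correlations across probe sets between 0.994 and 0.997. The targeted gene Ikzf1 was at 12.06 and 11.99 with Cre and at 12.07 and 12.11 without it. Whether its probes lie in the deleted part was not analysed here, so this value does not check the labels. The T lineage genes Cd3e and Thy1 were at 12.84 to 13.16 and 13.12 to 13.23 over the 4 mice. Some other genes of the T lineage list were lower, with Cd5 at 9.44 to 10.16, Ptcra at 9.40 to 9.76 and Cd2 at 8.03 to 8.81. Cd44, high at earlier stages, was at 5.90 to 6.40. The other genes listed for the earlier stages DN2 and DN3 were higher. Il2ra was at 10.71 to 11.58, Hes1 at 10.32 to 11.25, Dtx1 at 9.23 to 9.68 and Kit at 7.72 to 7.89. Cd8b1, listed for later stages, was at 11.50 to 11.91, and Gzma, listed for natural killer and gamma delta cells, at 12.25 to 12.48. The macrophage genes Adgre1 and Csf1r lay at 4.76 to 5.63, and the B cell gene Cd79a at 4.74 to 5.29. Other genes of these lists were higher, with Cd79b at 9.96 to 10.34, H2-Ab1 at 8.31 to 9.07, Cd74 at 7.02 to 8.28 and Lyz2 at 6.29 to 7.59. An RMA scale has no true zero, so a low value does not show absence. Mouse 131 stood apart in some of the genes that respond to cell handling. Hspa1a, an inducible heat-shock gene, was at 8.43 in that mouse and at 11.51, 12.14 and 12.36 in mice 129, 135 and 137. Not all genes of that list did so. Hsph1 was lowest in mouse 129 (11.03), and Ier3 and Egr2 were lowest in mouse 137 (6.02 and 6.58). Hspa8 lay between 13.69 and 13.73 over the 4 mice. Values without mouse 131 are given beside some genes below. Xist was high in mice 129 and 131 (12.51 and 12.34) and low in mice 135 and 137 (5.29 and 4.93), so each group held 1 mouse of each kind.

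Most members lay slightly lower in Cre+ cells, and none passed the test. The mean was lower in Cre+ mice for 20 of the 29 members (69.0%) and higher for 9, with a median difference (Cre+ minus Cre-) of -0.078 on the log2 scale. The differences ranged from -0.38 for the glucose transporter gene Slc2a3 to 0.095 for the pyruvate dehydrogenase kinase gene Pdk1, on the probe set of highest mean of each gene. Without mouse 135 the members' median was -0.047, and without mice 129, 131 or 137 it lay between -0.076 and -0.072. In bulk samples, fewer cells of a type and less RNA per cell cannot be told apart. Over all 19938 genes the median difference was -0.0087, and 54.1% had a lower Cre+ mean (52.3% of those at or above the median level). In limma's fit, 0 members and 0 of the 35556 probe sets (0%) had an adjusted p under 0.05, while 2356 probe sets had an unadjusted p under 0.05. A restricted test on the 21789 probe sets with 1 gene symbol called 266 of them (1.22%) and again 0 of the 29 members. Its count was 138 without mouse 129 and 480 without mouse 131. The smallest adjusted p of a member with limma was 0.376 in the first test and 0.0666 in the restricted one.

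The members were chosen with earlier results of these data known, so the shares that follow describe the list and do not test it. Both Cre+ mice lay below both Cre- mice for 13 of the 29 members (44.8%), against 20.3% of all genes. Both Cre+ mice lay above both Cre- mice for 2 members (6.90%), against 16.1% of all genes, and for the other 14 the groups overlapped. All 29 members had a mean at or above the median level of the array, and among the 10409 genes at that level or above the shares were 22.4% and 20.0%. In limma, 7 members had an unadjusted p under 0.05, and in all 7 the Cre+ mean was the lower one (24.1%). Over all genes, 6.86% had such a p in either direction and 2.74% with the lower mean in Cre+ mice (4.28% at or above the median level). The 7 genes were Slc2a3, Pkm, Pgam1, Hif1a, Aldoa, Slc16a1 and Pgd. With 2 mice in each group there are only 3 splits and no exact permutation test can go below p = 0.333, so these p-values depend on limma borrowing the spread from other probe sets.

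**Figure D1:**
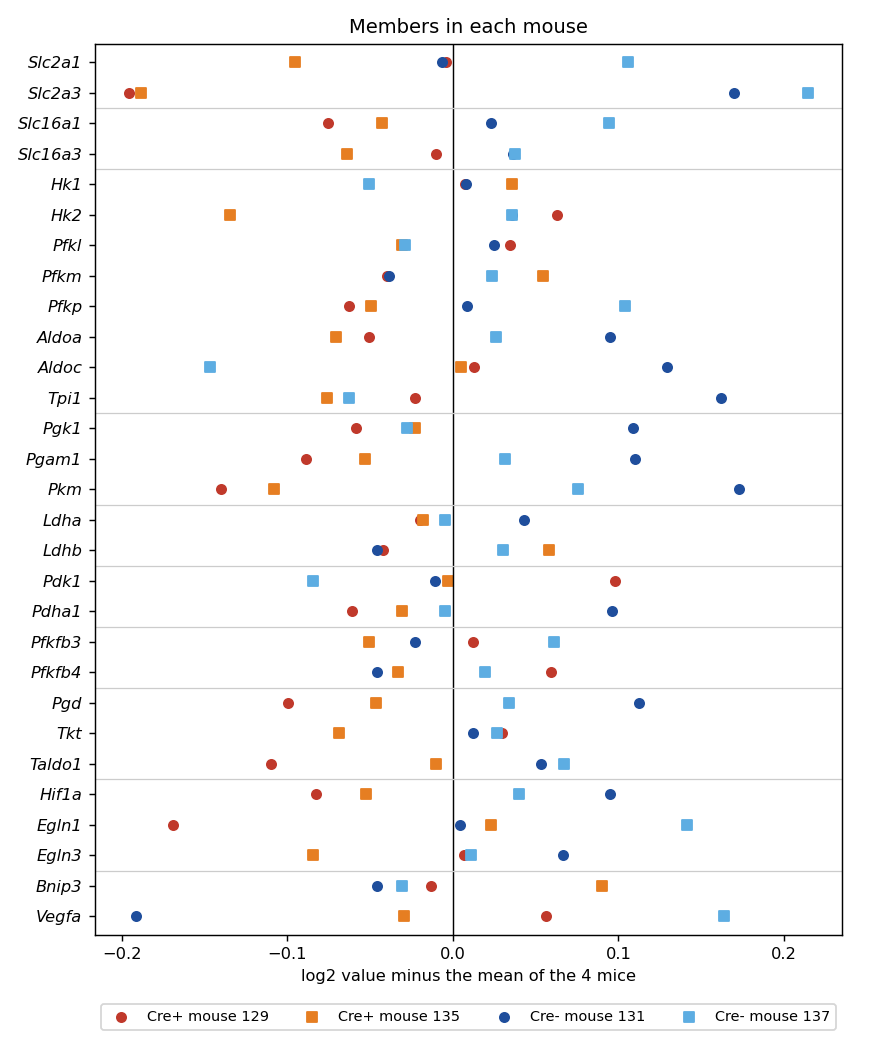
Each row is 1 of the 29 members, grouped by pathway step, and each point is 1 mouse, plotted as its log2 value minus the mean of the 4 mice. For Slc2a3, Pkm and Pgam1 both Cre+ mice lie left of both Cre- mice, while for Pfkl, Pfkm and Vegfa the groups overlap.

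The differences were small, and their intervals bound how large they could be. The 95% interval of limma, not adjusted for the number of genes, excluded a 2-fold change in either direction for 29 of the 29 members. The share of such intervals over all genes was not computed. Only 66 of the 19938 genes differed by more than 1 on the log2 scale, so this count does not set the members apart. The interval excluded a change of 0.5 on the log2 scale for 28 members, the exception being Slc2a3, with an interval from -0.58 to -0.19. The median standard error over the members was 0.066. The median gap between the mice of a group was 0.054 in Cre+ and 0.071 in Cre-, about the size of the members' median difference.

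**Figure D2:**
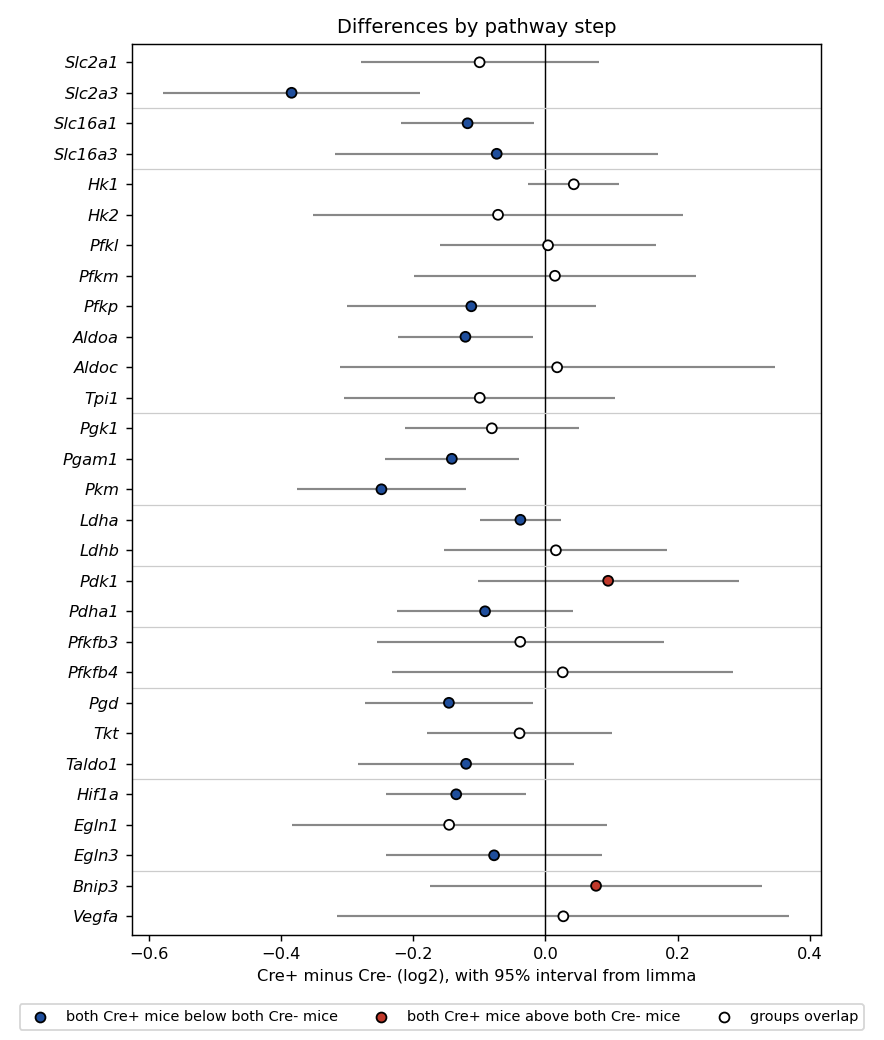
Each point is the difference Cre+ minus Cre- of 1 member on the log2 scale, with limma's 95% interval as a line, ordered by pathway step. Colours mark the 13 members with both Cre+ mice lower, the 2 with both higher and the 14 with overlap, and the interval of Slc2a3 reaches furthest left, to -0.58.

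**Figure D3:**
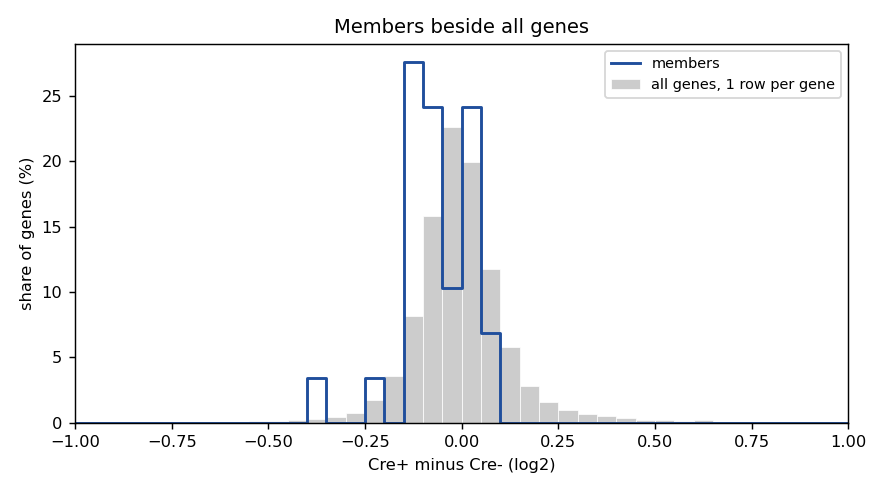
The distribution of the difference Cre+ minus Cre- (log2) over all 19938 genes (grey bars) is drawn beside that of the 29 members (blue line), each as a percent of its genes, over the range from -1 to 1 (66 genes lie outside). The members' median is -0.078 and that of all genes -0.0087.

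The sequences just upstream of the members' start sites were examined for the letters that HIF and related factors recognise. The RefSeq table of start sites (GRCm38.p6) matched 28 of the 29 members, with Slc2a3 unmatched. In the 250 bases before the first start site listed, the core hypoxia response element (ACGTG or GCGTG, on either strand) occurred in 23 of 28 members (82.1%). It occurred in 38.6% of all 27025 genes in the table and in 46.3% of the 15614 of them named on the array. The windows of the members were also richer in G and C, with a median of 62.2% against 56.4% for the genes on the array. The E-box CACGTG, which contains ACGTG and is read by MYC and related factors, was found in 5 of 28 members (17.9%) against 7.03% of the array's genes. The core letters GGGAA of Ikaros sites (on either strand) were found in 17 of 28 members (60.7%) against 56.9%. These matches are descriptions of sequence, and binding was not measured. The members were chosen as genes of glucose metabolism and HIF, and many glycolytic genes are known HIF targets. Their share of hypoxia elements therefore describes that choice and does not test it. Sites outside the 250 bases were not counted, so a window without a match does not show that a gene lacks the element.

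The 4 windows below belong to the 3 members of lowest p with a listed start site, Pkm, Pgam1 and Hif1a, and to Pdk1, the member with the largest higher value on its probe set of highest mean. They are written 5′ to 3′ on the plus strand, which is the strand of each of the 4 genes, with matches of either core form, on either strand, in capitals. They lie at chr9:59656326-59656575 for Pkm, chr19:41911621-41911870 for Pgam1, chr12:73907617-73907866 for Hif1a and chr2:71872974-71873223 for Pdk1. Pgam1 held 3 matches, the nearest starting 88 bases before the start site. Hif1a also held 3, of which 2 overlap in 1 E-box. Pdk1 held 1, starting 78 bases before the start site, and the window of Pkm held 0.
Pkm: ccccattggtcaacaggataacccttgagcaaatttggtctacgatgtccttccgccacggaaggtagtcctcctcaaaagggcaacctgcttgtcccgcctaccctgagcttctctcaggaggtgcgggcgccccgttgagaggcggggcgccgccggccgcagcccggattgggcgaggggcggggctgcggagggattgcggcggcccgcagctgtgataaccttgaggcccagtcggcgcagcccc
Pgam1: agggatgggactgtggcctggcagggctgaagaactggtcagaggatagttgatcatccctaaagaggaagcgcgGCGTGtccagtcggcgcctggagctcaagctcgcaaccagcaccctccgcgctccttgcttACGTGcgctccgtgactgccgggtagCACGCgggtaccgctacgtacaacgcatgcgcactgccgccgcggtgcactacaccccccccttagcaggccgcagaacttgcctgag
Hif1a: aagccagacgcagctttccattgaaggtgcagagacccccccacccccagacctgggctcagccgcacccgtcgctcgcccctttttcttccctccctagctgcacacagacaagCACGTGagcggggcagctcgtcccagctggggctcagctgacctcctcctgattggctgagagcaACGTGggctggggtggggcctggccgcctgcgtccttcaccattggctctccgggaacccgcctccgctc
Pdk1: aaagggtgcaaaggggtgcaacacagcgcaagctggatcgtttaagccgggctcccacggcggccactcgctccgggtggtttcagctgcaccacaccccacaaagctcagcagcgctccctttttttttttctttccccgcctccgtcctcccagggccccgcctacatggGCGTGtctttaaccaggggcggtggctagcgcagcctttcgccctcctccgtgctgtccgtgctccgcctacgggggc

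Glucose and lactate transporters had lower means in Cre+ mice for all 4 genes, of which 3 had groups that did not overlap. Among all genes, 20.3% had separate groups with Cre+ lower. Slc2a3 (probe set 10547641), which encodes the high-affinity glucose transporter GLUT3, was at 8.89 and 8.90 (Cre+) against 9.26 and 9.30 (Cre-). The difference of -0.38 (SE 0.076), 1.31-fold lower, was the largest of any member and exceeded the gap between mice of either group. It did not pass limma's threshold (adjusted p = 0.376 over all probe sets, 0.0732 in the restricted test). With a term for high Xist the restricted adjusted p from limma was 0.0466, the only setting that called Slc2a3. Leaving out any 1 mouse gave between -0.41 and -0.36. Slc2a1, which encodes GLUT1, the main glucose transporter of activated lymphocytes, was at 10.43 and 10.34 (Cre+) against 10.42 and 10.54 (Cre-). These groups overlapped, and the difference of -0.10 (SE 0.070) became -0.043 without mouse 137 and -0.16 without mouse 131.

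Slc16a1 and Slc16a3 encode the monocarboxylate transporters MCT1 and MCT4, which carry lactate across the cell membrane. Slc16a1 was at 12.03 and 12.06 (Cre+) against 12.13 and 12.20 (Cre-), a difference of -0.12 (SE 0.039) without overlap. Slc16a3 was at 7.01 and 6.95 (Cre+) against 7.05 and 7.06 (Cre-), a difference of -0.074 (SE 0.095). For Slc16a3 the groups were separate, but the difference was smaller than its standard error.

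The upper part of glycolysis, from hexokinase to triosephosphate isomerase, showed little difference between the groups. Of its 8 measured members, 4 had a lower Cre+ mean and 4 a higher one, with a median difference of -0.034 (-0.0018 without mouse 131 and -0.0054 without mouse 135, but -0.067 and -0.068 without mice 129 and 137). Aldoa, the aldolase of most tissues, was at 11.81 and 11.79 (Cre+) against 11.96 and 11.89 (Cre-). That difference was -0.12 (SE 0.040), 1.09-fold lower, without overlap between the groups. Aldoc, the aldolase known from brain, was at 6.98 and 6.97 (Cre+) against 7.09 and 6.82 (Cre-), and both Cre+ mice lay between the Cre- mice.

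Phosphofructokinase, which commits glucose to glycolysis, is built from liver, muscle and platelet types of subunit. The platelet type Pfkp was at 9.51 and 9.52 (Cre+) against 9.58 and 9.68 (Cre-), a difference of -0.11 (SE 0.073) without overlap. The liver type Pfkl was at 10.19 and 10.12 (Cre+) against 10.18 and 10.12 (Cre-). The muscle type Pfkm was at 9.02 and 9.11 (Cre+) against 9.02 and 9.08 (Cre-). For both Pfkl and Pfkm the groups overlapped, and the 95% intervals of the difference ran from -0.16 to 0.17 and from -0.20 to 0.23. Tpi1, the triosephosphate isomerase gene, was at 11.91 and 11.85 (Cre+) against 12.09 and 11.87 (Cre-), with overlap. Its difference of -0.099 (SE 0.080) was 0.013 without mouse 131.

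The hexokinases, which trap glucose in the cell by phosphorylation, had 95% intervals of the difference that included 0. Hk2, the inducible form, was at 7.96 and 7.77 (Cre+) against 7.94 and 7.94 (Cre-), so that the Cre+ mice lay on either side of the Cre- mice. Hk1 had 2 probe sets with that symbol alone. The one with the highest mean was at 13.57 and 13.60 (Cre+) against 13.57 and 13.52 (Cre-), with a difference of 0.043 (SE 0.027). It lists only 1 accession, which the annotation also gives for 16 probe sets named for both Hk1 and the ribosomal protein gene Rpl17, so its value is uncertain as a measure of Hk1. The other probe set, which lists RefSeq transcripts of Hk1, was at 10.22 and 10.09 (Cre+) against 9.99 and 10.08 (Cre-), a difference of 0.13 (SE 0.078). On that probe set the Cre+ mice were higher without overlap, and it did not pass limma's threshold (adjusted p = 0.935).

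The lower part of glycolysis, in which ATP is made, had lower Cre+ means for each of its 3 measured members, with a median difference of -0.14. Pkm (probe set 10585932) encodes pyruvate kinase of muscle and proliferating cells, the last enzyme of the pathway, and was at 11.33 and 11.36 (Cre+) against 11.64 and 11.54 (Cre-). The difference of -0.25 (SE 0.050), 1.19-fold lower, exceeded the gap within either group. It missed limma's threshold, with adjusted p = 0.387 for all probe sets and 0.0666 in the restricted test. Of the restricted settings, only leaving out mouse 137 called Pkm (limma's adjusted p = 0.0390). The second probe set of Pkm, which lists 2 accessions and no RefSeq transcript, was at 11.23 and 11.29 (Cre+) against 11.62 and 11.39 (Cre-). It also separated the groups, with a difference of -0.24 (SE 0.086), or of -0.13 without mouse 131.

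Pgam1, the phosphoglycerate mutase gene, was at 12.17 and 12.21 (Cre+) against 12.37 and 12.29 (Cre-), without overlap. The difference was -0.14 (SE 0.039), 1.10-fold lower, and it was -0.10 without mouse 131. Its 2 other probe sets held identical values, -0.15 (SE 0.049), so they do not count as separate measurements. Pgk1, the phosphoglycerate kinase gene on the X chromosome, was at 12.52 and 12.56 (Cre+) against 12.69 and 12.55 (Cre-). Mouse 131 was the highest of the 4, and the difference of -0.081 (SE 0.051) was -0.013 without it. A second probe set of Pgk1 held identical values, and a further one gave -0.069 (SE 0.049).

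Lactate dehydrogenase interconverts pyruvate and lactate. Its A subunit gene Ldha was at 13.34 and 13.34 (Cre+) against 13.40 and 13.35 (Cre-), a difference of -0.038 (SE 0.024) without overlap, and of -0.014 without mouse 131. The B subunit gene Ldhb was at 10.44 and 10.54 (Cre+) against 10.44 and 10.51 (Cre-), with overlap. Its other probe set was at 10.23 and 10.23 (Cre+) against 10.13 and 10.18 (Cre-), higher in Cre+ mice without overlap by 0.072 (SE 0.058). The 2 probe sets of Ldhb thus disagreed on whether the groups overlap, and neither passed the test.

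Over the 13 measured glycolytic and lactate dehydrogenase genes, 8 had lower Cre+ means and the median difference was -0.072. It was -0.017 without mouse 131 and -0.039 without mouse 135, so this median depended on single mice. Without mice 129 and 137 it was -0.063 and -0.072. Of the 29 members, 11 were highest in mouse 131, 9 in mouse 137, 5 in mouse 129 and 4 in mouse 135.

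At the entry of pyruvate into the mitochondria both members had separate groups, in opposite directions. Among all genes, 20.3% had separate groups with Cre+ lower and 16.1% with Cre+ higher. Pdk1 encodes a kinase that switches off pyruvate dehydrogenase, and it was at 9.72 and 9.62 (Cre+) against 9.61 and 9.54 (Cre-). The difference of 0.095 (SE 0.077) was the largest higher value among the probe sets of highest mean, below that of the other Hk1 probe set (0.13). Without 1 mouse it ranged from 0.045 (mouse 129 left out) to 0.15. Pdha1, the X-linked gene of a catalytic subunit of pyruvate dehydrogenase, was at 11.26 and 11.29 (Cre+) against 11.42 and 11.32 (Cre-), a difference of -0.091 (SE 0.052). Without mouse 131 the difference of Pdha1 was -0.041.

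Pfkfb3 and Pfkfb4 encode bifunctional enzymes that set the level of an activator of phosphofructokinase. Pfkfb3 was at 8.86 and 8.80 (Cre+) against 8.83 and 8.91 (Cre-). Pfkfb4 was at 7.096 and 7.003 (Cre+) against 6.990 and 7.056 (Cre-). The groups of both genes overlapped, and the 95% intervals of the difference ran from -0.26 to 0.18 for Pfkfb3 and from -0.23 to 0.28 for Pfkfb4.

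The 3 measured pentose phosphate genes had lower Cre+ means, with a median difference of -0.12. Pgd encodes 6-phosphogluconate dehydrogenase, which makes NADPH, and it was at 11.25 and 11.31 (Cre+) against 11.46 and 11.39 (Cre-). The difference was -0.15 (SE 0.049), 1.11-fold lower, without overlap. Taldo1, the transaldolase gene of the non-oxidative branch, was at 10.20 and 10.30 (Cre+) against 10.37 and 10.38 (Cre-), a difference of -0.12 (SE 0.063) without overlap. Tkt, the transketolase gene of the same branch, was at 11.04 and 10.95 (Cre+) against 11.03 and 11.04 (Cre-). For Tkt mouse 129 was the highest of the 4, so the groups overlapped.

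Genes of the oxygen-sensing axis also had lower Cre+ means in 3 of 3 cases, with a median difference of -0.13. Hif1a (probe set 10396421), which encodes the alpha subunit of HIF-1, was at 11.52 and 11.55 (Cre+) against 11.69 and 11.64 (Cre-), without overlap. The difference was -0.13 (SE 0.041), 1.10-fold lower, with limma's adjusted p = 0.608 over all probe sets. Leaving out 1 mouse at a time gave between -0.16 and -0.11. Egln1, which encodes the main hydroxylase that marks HIF-1 alpha for destruction, was at 10.14 and 10.33 (Cre+) against 10.31 and 10.45 (Cre-). For Egln1 the groups overlapped, and the Cre+ mice differed from each other by more than the group means did. Egln3, a hydroxylase gene that HIF itself is known to induce, was at 10.39 and 10.30 (Cre+) against 10.45 and 10.40 (Cre-), a difference of -0.078 (SE 0.063) without overlap, and of -0.050 without mouse 131 and -0.032 without mouse 135.

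Bnip3 and Vegfa, HIF targets outside glucose metabolism, did not have lower means. Bnip3, a mitophagy receptor gene, was at 7.56 and 7.67 (Cre+) against 7.53 and 7.55 (Cre-), higher in Cre+ mice without overlap by 0.077 (SE 0.098), or by 0.025 without mouse 135. Its other probe set was at 6.25 and 6.40 (Cre+) against 6.44 and 6.18 (Cre-), with overlap. Vegfa, which encodes an angiogenic growth factor, was at 9.69 and 9.60 (Cre+) against 9.44 and 9.80 (Cre-). Both Cre+ values of Vegfa lay between those of the Cre- mice, and the difference of 0.027 (SE 0.13) was -0.15 without mouse 131 and 0.20 without mouse 137.

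Other genes of the same pathways were taken from 8 lists. Other isozymes and transporters of glycolysis had lower Cre+ means in 16 of 29 cases (median -0.017), and genes of pyruvate entry and the tricarboxylic acid cycle in 18 of 30 (median -0.017). Other pentose phosphate genes were lower in 7 of 9 (median -0.057) and those of gluconeogenesis and glycogen in 10 of 20 (median 0.0081). On leaving out 1 mouse the median changed sign for other glycolysis genes (0.023 without mouse 131 and 0.0026 without mouse 135), for pyruvate entry (0.0021 without mouse 129) and for gluconeogenesis (-0.029 without mouse 137). No gene of these 4 lists passed either test of limma. The genes of lowest p did not share a direction. Eno3, the muscle enolase gene, differed by 0.34 (SE 0.090) and Pfkfb2, a further bifunctional regulator, by 0.35 (SE 0.12). Pdk2, a second pyruvate dehydrogenase kinase gene, differed by 0.32 (SE 0.092) and Sdhb, a subunit gene of succinate dehydrogenase, by -0.15 (SE 0.037). Pck2, the mitochondrial phosphoenolpyruvate carboxykinase gene, differed by 0.44 (SE 0.10) and the glycogen synthase gene Gys1 by 0.36 (SE 0.089). Rpe and Prps1, which act in ribose phosphate metabolism, differed by -0.12 (SE 0.057) and -0.087 (SE 0.061).

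Among other genes of oxygen sensing, HIF subunits, hydroxylases and partners had lower Cre+ means in 4 of 14 cases (median 0.038, and -0.026 without mouse 131). Hif3a, an alpha subunit gene, differed by -0.25 (SE 0.12) and Hif1an, the asparaginyl hydroxylase gene, by 0.13 (SE 0.082). Other hypoxia targets were lower in 17 of 32 cases (median -0.0070, but 0.025 and 0.036 without mice 129 and 137), and 1 gene of that list passed the restricted test. This was Ndrg1, a stress-responsive gene known to be induced by hypoxia, at 10.91 and 10.81 (Cre+) against 10.33 and 9.94 (Cre-). It was higher in Cre+ mice by 0.72 (SE 0.14), 1.65-fold, with limma's adjusted p = 0.0275 in the restricted test and 0.359 over all probe sets. The restricted call was lost without mouse 129 (limma's adjusted p = 0.0516). Bnip3l, a relative of Bnip3, was at 12.48 and 12.48 (Cre+) against 12.33 and 12.31 (Cre-), and did not pass.

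Regulators of glucose use had lower Cre+ means in 20 of 36 cases (median -0.022, but 0.017 and 0.041 without mice 135 and 137). Those of lowest p were 2 subunit genes of the energy sensor AMPK, Prkaa1 with -0.26 (SE 0.077) and Prkab1 with 0.12 (SE 0.045). MYC targets and ribosome biogenesis genes were lower in 19 of 21 cases (median -0.10), and 0 of the 21 passed either test of limma. The spermidine synthase gene Srm differed by -0.13 (SE 0.025) and the RNA polymerase I subunit gene Polr1b by -0.17 (SE 0.041). The members' median of -0.078 lay between that of the MYC list and those of the other 7 lists. Without mouse 135 it was -0.047, above the -0.056 of the other pentose phosphate genes.

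**Figure D4:**
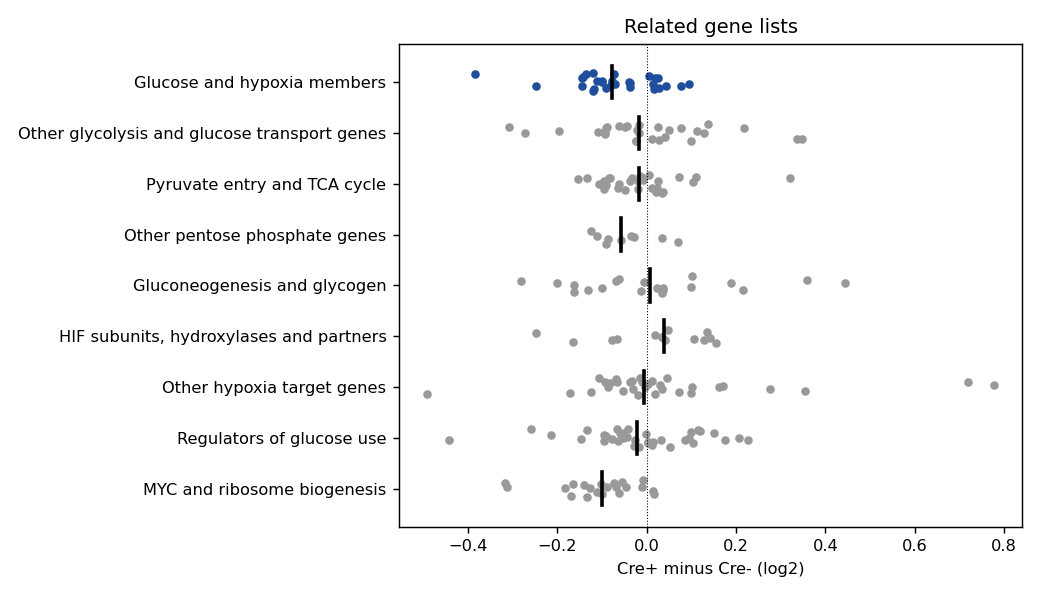
The difference Cre+ minus Cre- (log2) of each gene is plotted for the 29 members and for the 8 related lists, with the median of each. The medians of the members (-0.078) and of the MYC and ribosome biogenesis list (-0.10) lie furthest left.

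Markers of cell stage and of other cells were measured on the same arrays, and their sums are given on the linear scale as the range over the mice of a group. In the T lineage list 8 of 11 genes had higher Cre+ means and 4 passed the restricted test, namely Cd3d, Cd3g, Cd3e and Rag1, with sums of 40624 to 44221 in Cre+ and 36017 to 36555 in Cre-. The 3 lower genes were Cd2 (-0.52) and Cd247 (-0.10), both without overlap, and Gata3 (-0.065) with overlap. The restricted call of Rag1 was lost on leaving out 1 mouse (limma's adjusted p = 0.0906 without mouse 129 and 0.0653 without mouse 137). The DN2 and DN3 list, of which Hes1 passed as higher and 4 of 5 genes had lower Cre+ means, summed to 5001 to 5603 in Cre+ and 4386 to 5456 in Cre-. Genes of later stages (Cd4, Cd8a, Cd8b1 and Ccr7) summed to 3594 to 3902 in Cre+ and 4156 to 4794 in Cre-, and 0 of 4 passed. Cd8b1 had the highest level in that sum and differed by -0.27. Of the 4 genes 3 had lower Cre+ means, while Cd4 was higher in Cre+ mice without overlap, by 0.54. Natural killer and gamma delta genes summed to 5874 to 6089 in Cre+ and 7078 to 7293 in Cre-, and 1 of 8, Nkg7, passed as lower. In that list 5 genes had lower and 3 had higher Cre+ means (median -0.035). Gzma had the highest level in that sum and differed by -0.19. Of 16 macrophage and dendritic genes Lyz2 passed as higher, and their sums were 1419 to 1806 in Cre+ and 1364 to 1739 in Cre-. In that list 11 genes had higher and 5 had lower Cre+ means (median 0.040, and -0.041 without mouse 135). H2-Ab1 had the highest level in that sum and differed by 0.22, while H2-Aa and Cd74 differed by -0.57 and -0.47, all 3 with overlap. The 6 erythroid genes summed to 1885 to 1930 in Cre+ and 2046 to 2339 in Cre-, although 4 of 6 had higher Cre+ means (median 0.021). Tfrc, also a gene of dividing cells, had the highest level in that sum and differed by -0.25. The 6 B cell genes summed to 1377 to 1519 in Cre+ and 1286 to 1297 in Cre-, although 5 of 6 had lower Cre+ means (median -0.19). Cd79b had the highest level in that sum and differed by 0.25. The 15 genes of thymic epithelium and stroma summed to 3014 to 3111 in Cre+ and 3053 to 3134 in Cre-, and 0 genes of these 3 lists passed. Genes of handling and stress had higher Cre+ means in 13 of 15 cases (median 0.30, and 0.074 without mouse 131) and 0 passed, with sums of 29868 to 31246 in Cre+ and 23400 to 32093 in Cre-, the lowest being mouse 131. The part of these markers in the members' differences was not tested.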

How the data were processed

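RNA of sorted DN4 cells went through 2 rounds of amplification and labelling for Affymetrix mouse gene arrays, 1 per mouse, per the labels' protocols. Per the submitters' processing notes, the authors used RMA, and the deposited values are taken as log2 from their range (3.14 to 14.4). Not given in the sources used here: its version, filters and the build. The values were used without further normalization; 0 sample columns stayed unused.

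Titles gave the Cre status (2 against 2 mice). The platform annotation gave exactly 1 gene symbol to 21789 of 35556 probe sets, several to 1621 and none to 12146. Gene numbers matched a RefSeq table for 29 of the 29 members and changed 0 symbols. All probe sets were fitted with limma 3.58.1 in R 4.3.3 (lmFit, eBayes with an intensity trend; 2 residual and 2.99 prior degrees of freedom), with Benjamini-Hochberg adjustment and a threshold of 0.05. The restricted test is the same fit on probe sets with 1 gene symbol (6.12 prior degrees of freedom). The fit was tested on simulated data. The members, lists and tests were chosen with earlier results of these data known. Every member was named, and of each related list the 2 genes of smallest p and any called. Sums of marker lists add values taken off the log2 scale. Alternatives were centring, quantile normalization, cyclic loess, removal of probe sets with means under the 25th percentile or the median, array weights, a term for high Xist, eBayes robust or with no trend, other probe sets, and leaving out each mouse. The number of arrays limits the precision.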

Additional observations from a re-analysis of the deposited data

How the results depend on the processing

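Under the alternatives run over all probe sets, 0 of the 29 members passed the threshold. The count over all probe sets was 0 with the deposited values, 10 after centring of the arrays, 25 and 80 with filters at the 25th percentile and the median, and 266 in the restricted test. It was 0 under the other alternatives over all probe sets and without any 1 mouse. In the restricted test, settings added after seeing the data gave 138, 480, 276 and 385 without mice 129, 131, 135 and 137, and 565 with a term for high Xist. They called 0 members or 1, which was Pkm without mouse 137 (adjusted p = 0.0390) and Slc2a3 with the term for high Xist (adjusted p = 0.0466). Over the restricted settings the adjusted p ranged from 0.0390 to 0.223 for Pkm and from 0.0466 to 0.358 for Slc2a3. The cause was not tested.

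Without 1 mouse the members' median difference ranged from -0.076 to -0.047 (without mouse 135), and 20 to 23 members had lower Cre+ means. The sign changed for 10 members, each time on leaving out 1 mouse: Hk2 (-0.17 to 0.027), Pfkl (-0.029 to 0.037), Pfkm (-0.032 to 0.061), Aldoc (-0.12 to 0.16), Tpi1 (-0.21 to 0.013), Ldhb (-0.034 to 0.066), Pfkfb3 (-0.080 to 0.0039), Pfkfb4 (-0.020 to 0.073), Tkt (-0.088 to 0.010) and Vegfa (-0.15 to 0.20). It did not change for the other 19. A lone mouse of a group was assumed to vary like the other group. No paired analysis was possible because the labels give the groups no shared replicate numbers. The term for high Xist, which sets 129 beside 131 and 135 beside 137, was read from the data and is not a pairing in the labels. With 2 arrays in each group, differences of the size seen here are near the spread between mice, and signal over background was not analysed here.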
